A study of Mus musculus with 4 samples.

Results

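The 44 genes described here run the mammalian cell cycle. They were chosen by name, as D and E cyclins with their kinases, Cdk inhibitors, the Rb family and E2F factors, replication genes, and genes of G2 and mitosis, out of 21627 genes that code for protein on the autosomes 1 to 19 and X. The measurement was ChIP-seq for H3K27ac, a histone acetylation of active promoters and enhancers, in Th17 cells, which make IL-17. These were grown from C57BL/6 mouse naive CD4+ T cells cultured for 72 h with anti-CD3ε (0.25 µg/mL), anti-CD28 (1 µg/mL), TGF-β (0.1 ng/mL in the treatment label, a range in the growth protocol) and IL-6 (20 ng/mL). All 4 libraries share this treatment: 2 of H3K27ac and 2 of input DNA, from 2 biological replicates. The design holds no second condition, so there is no treated and untreated group to compare, and the genes were compared with each other within the 1 deposited peak list.

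Of the 56284 peaks on these chromosomes, 273 lay in the 44 genes or within 20000 bp on each side. A peak has a position and no height, score or value per replicate. No value below therefore has a replicate error, no test was made, sequencing depth is unknown, and absence of a peak says only that none was listed. "Acetylated length" is the number of bases under peaks in the gene and its 20000 bp flanks. As a check of the cell label, all 10 markers of T and Th17 cells had a peak at a start or gene end, with 13964 to 38735 acetylated bp (Cd28 the longest). Of 8 markers of B, myeloid and erythroid cells, 1 had one (Klf1), 3 had no peak in the window (Ms4a1, Lyz2, Adgre1), and the highest value was 4050 bp.

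In dividing cells, D cyclins with Cdk4 or Cdk6 start the phosphorylation of Rb proteins, E cyclins with Cdk2 continue it, and Cdk inhibitors hold these kinases back. Free E2F factors then activate genes for DNA replication, and a later wave of genes, repressed in quiescent cells by the DREAM complex through CHR elements, serves G2 and mitosis. T cells leave quiescence through this pathway when their receptor and CD28 are engaged. H3K27ac marks chromatin of active genes and does not measure their RNA or protein.

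Acetylation at the start was nearly universal among the cell cycle genes. A peak lay within 1000 bp of a start in 41 of 44 genes, against 54.2% of all protein-coding genes, which is the background for every such count here. All 8 replication genes, all 15 genes of G2 and mitosis and all 7 genes of the Rb and E2F families had such a peak. The 3 without were G1 genes: Ccnd1, Cdkn1c and Cdkn2a. RefSeq lists a strand and start for 35 of the 44 genes, of which 34 had a start peak (background 55.0%) and 33 had a start base inside a peak (50.7%). For Ccnd1, Ccnd2, Ccne2, Cdkn1c, Rb1, E2f4, Mcm4, Ccna2 and Aurkb either annotated gene end was used. With either gene end used for every gene, 41 of 44 again had a peak, against 53.8% of all genes. Any peak in the window was found at 43 of 44 genes, all but Cdkn1c, against 70.9%. A further 99 genes of the pathway were examined in the same way, 27 of G1 control, 36 of replication and 36 of mitosis. All 99 had a start peak.

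Short sequence words known from cell cycle promoters were unevenly spread over the groups. CHR words were in most promoters of G2 and mitosis members, E2F words in most of replication members, and CCAAT in most of both. RefSeq promoters (GRCm38.p6, 250 bases before to 50 after each start) were searched on both strands, with 42 promoters for 35 genes. The CHR words TTTGAA and TTCGAA were in 10 of 13 promoters of G2 and mitosis genes (76.9%), in 2 of 8 of replication genes, in 3 of 7 of the Rb and E2F families and in 0 of 14 of G1 genes. They were in 17.2% of all 21044 protein-coding promoters and 13.4% of the 11457 with a start peak. E2F words, TTTCCCGC and TTTGGCGC, were in 5 of 8 replication promoters, 1 of 13 G2 and mitosis promoters (Cdc25a) and 2 of 14 G1 promoters (Cdk2 and 1 of 2 for Cdkn2a) and 2 of 7 of the Rb and E2F families, against 2.04% of all and 3.13% of those with a peak. CCAAT was in 12 of 13 G2 and mitosis promoters (92.3%), 6 of 8 replication and 6 of 14 G1 promoters, against 38.5% of all. The E-box CACGTG was in 3 of 14 G1 promoters (Cdk4, Cdk6 and 1 for Cdkn2c) and in 1 of 7 of the Rb and E2F families. It was in 0 of 21 of replication and mitosis genes, against 7.91% of all and 10.3% of those with a peak.

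**Figure D1:**
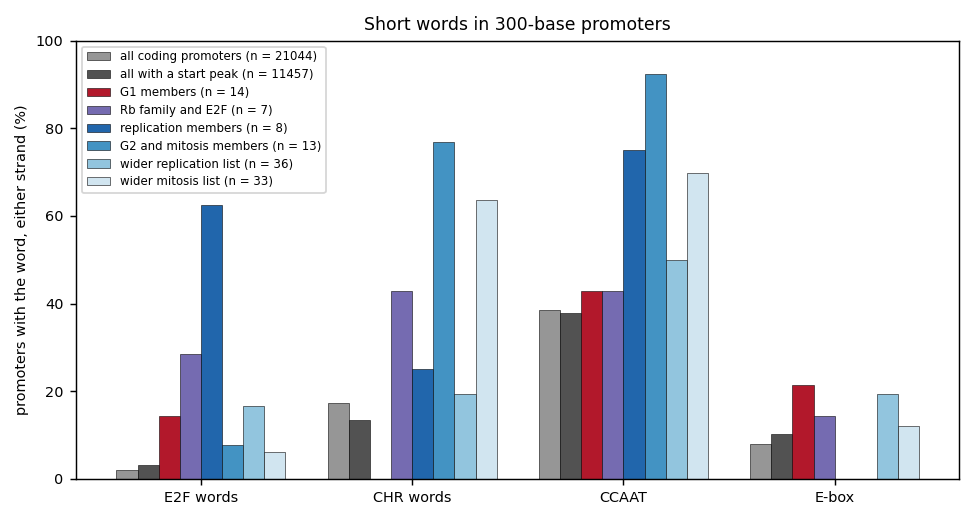
Share of 300-base promoters (vertical axis, percent) that hold E2F words, CHR words, CCAAT or the E-box on either strand, one bar per gene group with the number of promoters in the legend. CHR words stand at 76.9% in G2 and mitosis members and 63.6% in the wider mitosis list, and E2F words are highest in the replication members. G1 members have no bar for CHR words. The wider G1 control list, with CHR words in 29.0% of its promoters, is not drawn.

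The wider lists, which share no gene with the members, held the CHR words in 21 of 33 mitosis promoters (63.6%), 7 of 36 replication promoters (19.4%) and 9 of 31 G1 control promoters (29.0%). E2F words were rarer there, in 6 of 36 replication promoters (16.7%) and 2 of 33 mitosis promoters. The E-box, in no replication or mitosis member, was in 7 of 36 wider replication promoters (19.4%) and 7 of 31 wider G1 control promoters (22.6%). It was in 4 of 33 wider mitosis promoters (12.1%), near the 10.3% of all promoters with a start peak. All 3 shares lay above that of all promoters. A match is a string of letters, and a missing one says only that these letters are not in the window. No word contains a word of another group, though neighbouring words can share letters, as the end of CCAAT and the start of TTCGAA can.

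The 150 bases before the start are shown for 9 promoters, each before a start base inside a peak. They were picked because they carry the contrast between the groups, and are not a fair sample of them. Left out are G1 promoters with words, such as that of Cdk2 with E2F and CCAAT words. Also left out are the G2 and mitosis promoters without CHR words, those of Ccnb1, Cdc25a and Mad2l1. Those shown are 2 of G1 genes, 3 of replication genes and 4 of mitotic genes. Each is written 5′ to 3′ on the gene's strand from RefSeq GRCm38.p6, with E2F, CHR, CCAAT and E-box words in capitals.
Ccnd3 (chr17:47504901-47505050, plus strand): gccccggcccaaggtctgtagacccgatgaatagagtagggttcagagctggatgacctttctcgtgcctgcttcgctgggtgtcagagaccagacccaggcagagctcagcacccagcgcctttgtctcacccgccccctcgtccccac
Cdk6 (chr5:3343743-3343892, plus strand): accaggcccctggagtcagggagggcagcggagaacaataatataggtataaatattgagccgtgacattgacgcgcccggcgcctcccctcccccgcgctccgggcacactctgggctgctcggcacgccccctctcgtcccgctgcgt
Mcm5 (chr8:75109359-75109508, plus strand): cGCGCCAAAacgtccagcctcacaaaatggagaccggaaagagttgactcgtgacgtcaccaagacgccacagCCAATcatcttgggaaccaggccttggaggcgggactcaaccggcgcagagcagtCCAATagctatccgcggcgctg
Mcm6 (chr1:128359706-128359855, minus strand): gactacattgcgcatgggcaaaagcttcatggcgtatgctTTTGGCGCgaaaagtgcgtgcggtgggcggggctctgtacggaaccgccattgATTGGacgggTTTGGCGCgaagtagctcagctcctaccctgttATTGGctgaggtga
Cdc6 (chr11:98908001-98908150, plus strand): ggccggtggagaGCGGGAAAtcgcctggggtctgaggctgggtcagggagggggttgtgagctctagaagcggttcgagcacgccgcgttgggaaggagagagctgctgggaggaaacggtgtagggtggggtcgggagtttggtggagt
Cdk1 (chr10:69352913-69353062, minus strand): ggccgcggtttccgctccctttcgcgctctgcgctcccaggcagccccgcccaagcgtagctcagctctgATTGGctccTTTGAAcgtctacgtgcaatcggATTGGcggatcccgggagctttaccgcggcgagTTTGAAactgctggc
Cdc20 (chr4:118437344-118437493, minus strand): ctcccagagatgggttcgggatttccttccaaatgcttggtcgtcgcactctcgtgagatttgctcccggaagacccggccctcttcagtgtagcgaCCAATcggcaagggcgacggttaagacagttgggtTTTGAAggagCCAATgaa
Mki67 (chr7:135716380-135716529, minus strand): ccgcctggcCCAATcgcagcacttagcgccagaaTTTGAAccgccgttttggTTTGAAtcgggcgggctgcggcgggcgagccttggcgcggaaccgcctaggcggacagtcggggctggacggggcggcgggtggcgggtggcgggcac
Top2a (chr11:99024190-99024339, minus strand): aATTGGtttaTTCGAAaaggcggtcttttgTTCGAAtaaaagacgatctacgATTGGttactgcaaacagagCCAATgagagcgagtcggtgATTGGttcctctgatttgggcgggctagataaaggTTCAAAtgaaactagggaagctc

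Neither the Ccnd3 stretch, before its outer start, nor the Cdk6 stretch held a word in capitals. The E-box of Cdk6 lay further out, at 220 bases, and the inner Ccnd3 start had CCAAT at 108 bases. Mcm6, a subunit of the replicative helicase, had the E2F word TTTGGCGC at both 110 and 47 bases before the start. Mcm5, another helicase subunit, had the reverse complement of that word, GCGCCAAA, at 149 bases. Cdc6, which loads the helicase, had GCGGGAAA at 138. Cdk1, the mitotic kinase, carried TTTGAA at 71 and 15 bases before the start and ATTGG, the reverse complement of CCAAT, at 80 and 48. Cdc20, an activator of the anaphase-promoting complex, had TTTGAA at 18 bases between a pair of CCAAT words. Top2a, a DNA topoisomerase, had 3 of its 4 CHR words in the stretch shown. In Aurka, Bub1, Cdc25b and Plk1 the only CHR words lay after the start, 32, 14, 7 and 30 bases from it. Of the 10 G2 and mitosis genes with the words, 9 had one within 50 bases of the start.

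These promoters were also rich in CpG. The ratio of observed to expected CpG had a median of 0.935 over 21 replication and mitosis promoters (range 0.625 to 1.00) and 0.804 over 14 G1 promoters (0.089 to 1.04). The median was 0.781 over all promoters with a start peak and 0.574 over all promoters, so the G1 median lay near that of acetylated promoters in general. The lowest, 0.089, was at 1 of the listed starts of Cdkn1a.

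Around the genes, the G1 group differed most among its own members. The 14 genes of G1 cyclins, kinases and inhibitors had a median acetylated length of 7708 bp and a range from 0 to 50036 bp. The 23 replication and mitosis genes had a median of 4865 bp and a range from 1262 to 17562 bp, and all protein-coding genes a median of 2398 bp. The groups overlapped: 5 G1 genes lay below the median of the later genes, and 7 of the 23 later genes lay above the G1 median. Only Ccnd2, Ccnd3 and Cdk6 exceeded the highest later gene. The Rb and E2F genes had a median of 9907 bp (3540 to 20940 bp), but these are long genes, with a median length of 53788 bp. As a share of the window the medians were 17.8% for G1, 8.41% for replication and mitosis, 8.71% for the Rb and E2F families and 3.23% for all genes. The G1 genes were the shorter ones, with a median length of 9625.5 bp against 13866 bp.

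**Figure D2:**
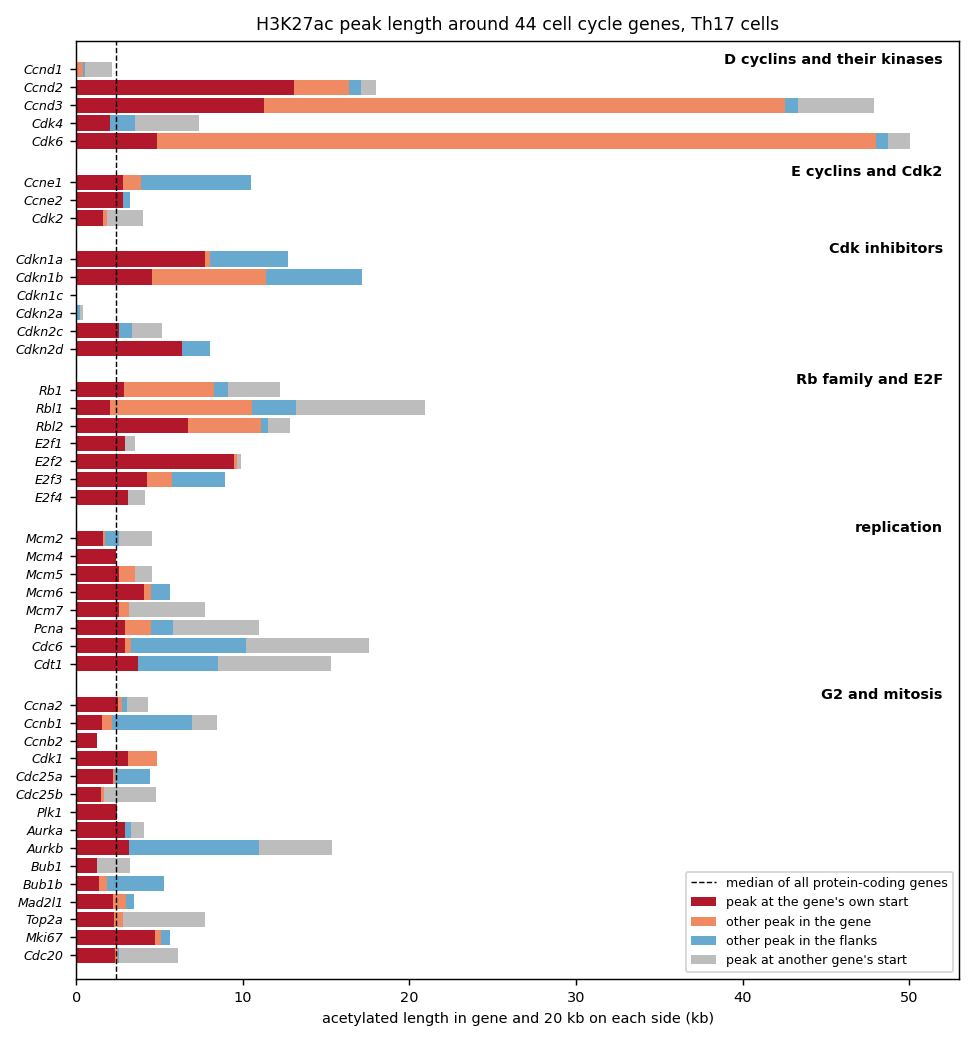
Acetylated length (horizontal axis, kb) in each of the 44 genes and 20 kb on each side, stacked by where the peaks lie, with genes grouped by role; for genes without a listed start, a peak at either gene end is drawn as a start peak. Cdk6 (50036 bp) and Ccnd3 (47852 bp) stand far above the rest, while Cdkn1c has no bar and the G2 and mitosis genes have a median of 4770 bp.

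Among D cyclins, which sense mitogens, Ccnd2 and Ccnd3 were acetylated and Ccnd1 was not marked at either end. Ccnd3 (chr17:47505051-47599689) had 47852 acetylated bp in 12 peaks, at percentile 99.7 of all genes. It has 2 listed starts 88416 bp apart, and both lay inside a peak, of 5184 bp at the outer and 6099 bp at the inner start. Directly downstream of the outer start came a peak of 16106 bp (chr17:47509049-47525154), the widest in any of the 44 windows. No peak was listed over the 48640 bp before the inner start's peak.

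Ccnd2 (chr6:127125162-127152188) had 18013 bp in 6 peaks, at percentile 96.5. A single peak of 13058 bp (chr6:127145613-127158670) covered its right end, the widest start peak of the 44 genes. Ccnd1 (chr7:144929931-144939831) had 404 bp in 2 peaks inside the gene, which come within range with a window of 2500 bp, and 2173 bp in all. Of these, 1645 bp belonged to a peak at the start of the neighbour LTO1. Its total lay at percentile 47.9, and so near the middle of all genes.

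The partner kinases differed as well. Cdk6 (chr5:3341004-3531008) had 50036 bp in 33 peaks, the longest of the 44 genes, and 47313 bp lay inside the gene, which is 190005 bp long. Besides a start peak of 4830 bp it held 28 peaks, 14 of them under 500 bp. The longest stretch with none between them was 74980 bp. The widest peak, of 13573 bp (chr5:3492605-3506177), lay beyond that stretch, beginning 148712 bp from the start. Cdk4 (chr10:127063535-127067288), in a window with 5 other genes, had a start peak of 1531 bp and a further 482 bp beside it. Of its 7396 bp, 3891 bp lay in peaks at the starts of Marchf9 and Tspan31.

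**Figure D3:**
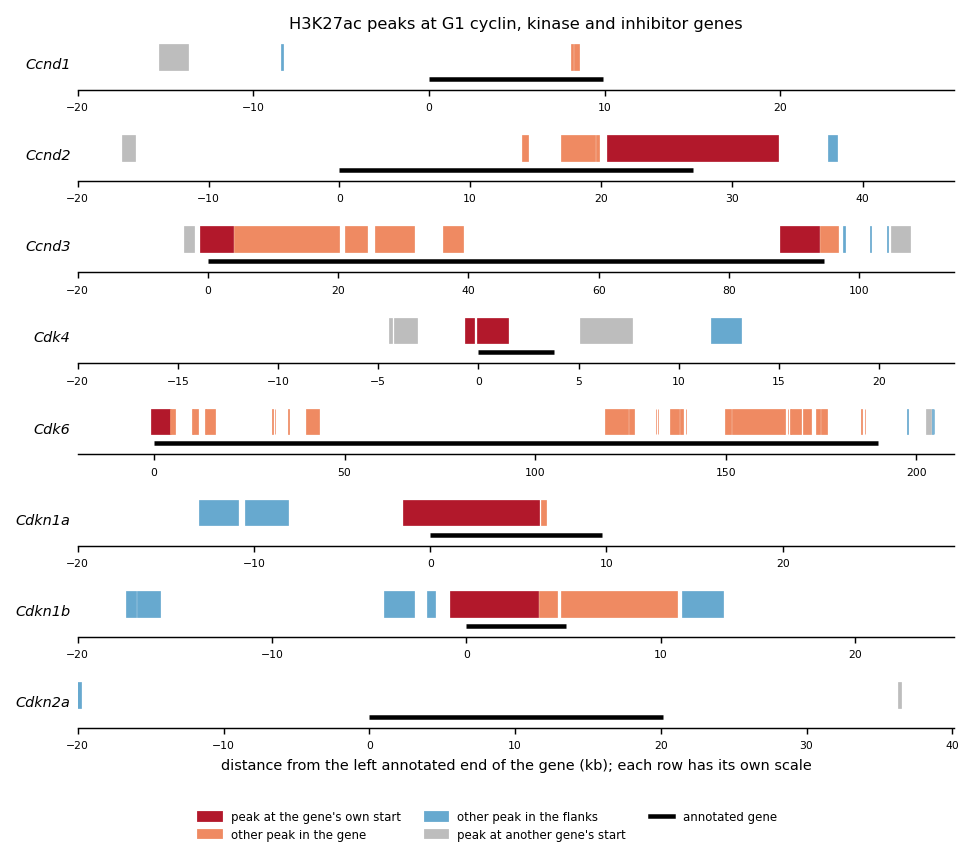
Peaks (boxes) around 8 G1 genes against the distance from the left annotated gene end (horizontal axis, kb, a separate scale in each row), coloured by position, with the gene as a black bar. Ccnd3 and Cdk6 carry peaks through the gene, Cdkn1b is flanked by peaks on both sides, and the only boxes in the Cdkn2a row are at the edge of the window and at the start of Cdkn2b.

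E cyclins drive entry into S phase. Ccne1 (chr7:38097984-38107490) had 10472 bp in 9 peaks with no peak at another gene's start. Its start peak was 2786 bp, and 4 peaks past the finish of the gene, the widest 2839 bp, made up much of the rest. Ccne2 had a gene-end peak of nearly the same width, 2796 bp, but only 3212 bp in all. Cdk2 had 3995 bp, of which 2129 bp lay at the starts of its neighbours Pmel and Rab5b.

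The Cdk inhibitors split into 4 acetylated genes and 2 without. Cdkn1b (chr6:134920401-134925525), which encodes p27, an inhibitor abundant in resting T cells, had 17177 bp in 8 peaks that filled 38.1% of its window, the highest share of the 44 genes. Its start peak of 4538 bp was followed by a peak of 5959 bp that crosses the gene's finish. Cdkn1a (chr17:29090979-29100722), which encodes p21, had 1 peak of 7733 bp over both listed starts and 12713 bp in all. Cdkn2d, for the INK4 protein p19INK4d, lay entirely inside a peak of 6351 bp that also reaches the start of Kri1, and had 8020 bp. Cdkn2c, for p18, had a start peak of 2560 bp and 5172 bp in all, of which 1839 bp lay at the start of Faf1.

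Cdkn2a (chr4:89274473-89294619), which encodes p16INK4a and ARF from separate starts, had no peak in the gene. Its listed starts lay 16137 and 27473 bp from the nearest peak, and its 432 bp were 185 bp at the start of Cdkn2b and 247 bp at the edge of the window. Cdkn1c (chr7:143458339-143461059), an imprinted gene for p57, had no peak within 71020 bp.

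Among the pocket proteins, which bind E2F factors, Rbl1 had 20940 bp, of which 7768 bp lay in peaks at the start of its neighbour Samhd1. Rbl2, for p130 of the DREAM complex, had a start peak of 6711 bp and 12848 bp in all, and Rb1 had 12258 bp, with 3172 bp at the start of Lpar6 inside it. Of the E2F genes, E2f2 (chr4:136172274-136196057) had a start peak of 9197 bp, reaching 8354 bp past the outer start and wider than those of 98.2% of genes with a start peak, but only 186 bp of peaks away from starts. E2f3 had 8948 bp, with peaks at both listed starts. E2f1 and E2f4 had 3540 and 4154 bp and no peak away from a start. The peaks at the gene ends of E2f4, of 2712 and 386 bp, also lay at a start or end of Exoc3l and Elmo3, respectively.

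All 8 replication genes had a start peak, but peaks at their own starts made up only 33.3% of the acetylated length around them. Peaks at the starts of other genes made up 39.2%, and more than 50% lay at the own start in 3 of the 8 (Mcm4, Mcm5 and Mcm6). Start peaks of the helicase subunit genes were 972 bp (Mcm2), 2411 bp (Mcm4), 2596 bp (Mcm5), 4044 bp (Mcm6) and 2599 bp (Mcm7). The Mcm2 start also had another peak of 633 bp. Acetylated lengths of these 5 genes ran from 2411 bp (Mcm4) to 7736 bp (Mcm7), and 4580 bp of the latter lay at the starts of other genes. Those of Mcm4 and Mcm7 lay as well at the start or end of Prkdc and of Ap4m1, whose listed starts are 138 and 755 bp from those of Mcm7 on the opposite strand. Cdc6 (17562 bp), Cdt1 (15266 bp), both of which load the helicase, and Pcna (10956 bp), the sliding clamp, had the longest totals. In each of these 3 a large part belonged to neighbours: 7398 bp at the start of Rara and Gm46294 near Cdc6, 6778 bp at Piezo1 and Aprt near Cdt1, and 5164 bp at Tmem230 and Cds2 near Pcna.

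Genes of G2 and mitosis had a median acetylated length of 4770 bp, and 42.7% of their summed length lay at their own starts. Aurkb, the kinase of the chromosomal passenger complex, led with 15371 bp, of which 4386 bp lay at the starts of Borcs6 and Tmem107 and only 1445 bp inside the gene. Ccnb1, a mitotic cyclin, followed with 8446 bp, of which 5397 bp lay away from starts, 5 of the peaks in the flanks. Top2a had 7721 bp, 4901 bp of it at other starts. Mki67, the Ki-67 proliferation marker, had the widest start peak of the group, 4724 bp, and Cdk1 came next with 3116 bp. In Plk1, the mitotic polo kinase, Ccnb2 and Mcm4 the start peak was the only peak in the window, with 2421, 1262 and 2411 bp. The phosphatase genes Cdc25a and Cdc25b, whose products activate Cdks, had 4445 and 4770 bp, the mitotic kinase gene Aurka had 4082 bp, and the cyclin gene Ccna2 had 4328 bp. The start peak of Aurka also lay at the start of Cstf1, 433 bp away on the opposite strand. Cdc20 had 6097 bp, of which 3508 bp lay at another gene's start. The checkpoint genes Bub1, Bub1b and Mad2l1 had start peaks of 1260, 1359 and 2228 bp and acetylated lengths of 3238, 5296 and 3447 bp.

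Among genes that had a start peak, the median width was larger in the G1 group than in the later genes. Over the 11 G1 genes with a start peak the median was 4538 bp (1531 to 13058 bp), over the 23 replication and mitosis genes 2228 bp (972 to 4724 bp), and over all 11715 genes with a start peak 1808 bp. The widths at 5 G1 genes, Ccnd2, Ccnd3, Cdk6, Cdkn1a and Cdkn2d, exceeded the widest of the later genes, that of Mki67. With the 3 G1 genes without a start peak counted at 0 bp, the G1 median was 2791 bp and its ratio to the later median 1.25. In the other direction, Cdk4 and Cdk2 fell below the later genes' median. A width of 2000 bp or more was reached by 9 of 11 G1 genes, 7 of 7 Rb and E2F genes and 13 of 23 later genes, against 42.8% of all genes with a start peak. The wider lists, with medians of 2079 bp for G1 control, 1912.5 bp for replication and 1962.5 bp for mitosis, lay near the value for all genes, below the median of the 11 G1 genes. With the Rb and E2F genes counted as G1, the ratio was 1.35 in place of 2.04.

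**Figure D4:**
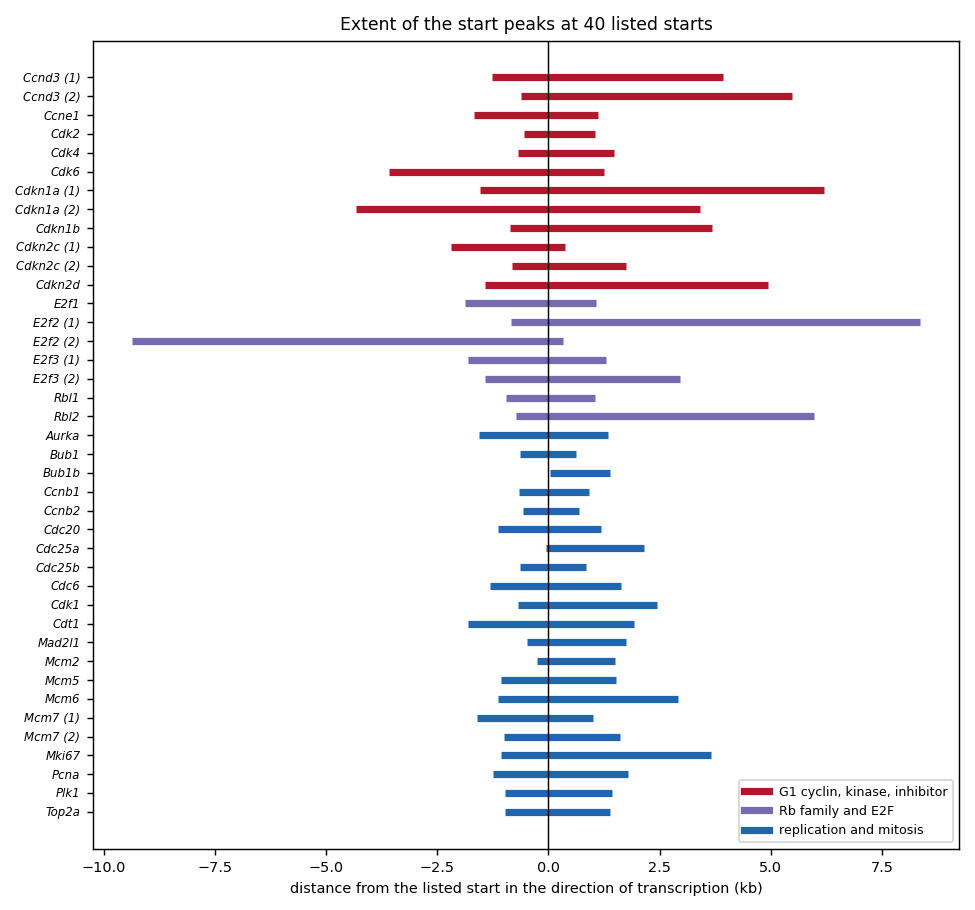
Extent from the first to the last base of the start peaks at the 40 listed starts with a peak, as distance from the start (horizontal axis, kb, transcription to the right), including gaps where a start has several peaks; numbers in brackets tell apart the starts of 1 gene. Red bars of G1 genes reach up to 6192 bp downstream (Cdkn1a), and blue bars of replication and mitosis genes stay within 3658 bp (Mki67).

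Most start peaks of replication and mitosis genes extended further into the gene than upstream. At the 21 starts of replication and mitosis genes the median reach was 980 bp upstream and 1492 bp downstream, and 18 of 21 reached further downstream. At the 12 starts of G1 genes the medians were 1342 and 2577 bp, with 8 of 12 (66.7%) longer downstream, a share near that of all starts. At the 7 starts of the Rb and E2F families, from 5 genes, the medians were 1423 and 1286 bp, and 4 of 7 reached further downstream. These medians give no direction, because E2f2 and E2f3 enter from both listed starts. The same E2f2 peak reaches 8354 bp downstream of the outer start and 9350 bp upstream of the inner. In every group a gene with several listed starts enters once per start. Over all 11457 protein-coding starts with a peak the medians were 784 and 1059 bp, with 68.2% longer downstream. At Bub1b the peak began 25 bp after the start, and at Cdc25a it covered only 64 bp before it.

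Away from starts, the summed lengths of the groups differed in where the peaks lay. Inside genes the difference rested mostly on Ccnd3 and Cdk6. At least 1 peak away from every listed start was found at 37 of 44 genes (13 of 14 G1, 19 of 23 replication and mitosis), against 53.9% of all genes, and the median was 3 such peaks in both groups. With peaks of at least 500 bp only, the count was 24 of 44 (10 of 14 G1, 10 of 23 later), against 39.3% of all genes. Peaks that overlap the gene but no start, counted whole, made up 46.5% of the acetylated length of the G1 group. For the later genes the share was 6.15%. This G1 share rests on Ccnd3 and Cdk6, which hold 85.8% of it. Without these, picked after their values were seen, it was 13.9%, and the G1 median acetylated length was 6284 bp. That 13.9% counts whole the Cdkn1b peak of 5959 bp, most of which lies past the gene's finish, and so overstates the length inside the genes. The widest peak inside a replication or mitosis gene away from a start was 1400 bp, in Pcna. With start peaks included, the median acetylated length inside the gene was 2236 bp for G1 and 1936 bp for the later genes. More than 50% of the acetylated length lay inside the gene at 18 genes (5 of 14 G1, 10 of 23 later), against 37.8% of all genes with a peak in the window, and more than 50% at the starts of other genes at 8, against 24.5%. Peaks at the starts of other genes made up 32.2% of the length around the later genes and 8.86% around the G1 genes, which had a median of 1 other gene in the window against 2. With those peaks left out, the medians were 5762.5 bp for G1 and 3447 bp for the later genes.

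Long clusters lay at G1 and at replication members more often than at all genes. At members of G2 and mitosis the share, 6.67%, was near that of all genes. Stitching neighbouring peaks at the distance commonly used for super-enhancers, and keeping clusters above the point where the ranked covered length turns steep (13241 bp), gave 826 domains. They overlapped 11 of the 44 genes, against 6.37% of all genes. Of the 14 G1 genes 6 were overlapped (Ccnd2, Ccnd3, Cdk6, Ccne1, Cdkn1a and Cdkn1b), of the replication genes 3 of 8 (Pcna, Cdc6 and Cdt1), of the G2 and mitosis genes 1 of 15 (Aurkb), and of the Rb and E2F genes 1 (Rbl1). In the wider lists 3 of 99 were overlapped, 1 in each list. That was 3.70% for G1 control, 2.78% for replication and 2.78% for mitosis, all below the share of all genes. The domains of Ccnd2 and Ccne1 held no other protein-coding gene, while that at Cdc6 spanned 5 genes and ranked 122, close to those of Cdk6 (118) and Ccnd3 (125). With start peaks removed before stitching, Ccnd3, Cdk6 and Cdkn1b remained and none of the later genes did, against 2.26% of all genes. With stitching at 5000 bp, 6 members were overlapped (Ccnd2, Ccnd3, Cdk6, Cdkn1b, Rbl2 and Cdt1), against 4.06%. Of the replication genes only Cdt1 was left there, without Cdc6 and Pcna. At least 10000 acetylated bp were reached by 6 of 14 G1 genes, 3 of 7 Rb and E2F genes and 4 of 23 later genes, against 11.3% of all genes.

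The wider lists had shorter stretches than the G1 members. Their median acetylated lengths were 3977 bp for G1 control, 3814.5 bp for replication and 4660 bp for mitosis. As a share of the window the medians were 5.05% for G1 control, 6.02% for replication and 7.02% for mitosis. The higher G1 share seen among the members thus did not recur in these lists. The longest were Lin54 (17303 bp), of the DREAM complex, and the ubiquitin ligase scaffold Cul1 (13714 bp) in G1 control, Mcm3 (16793 bp) and the clamp loader subunit Rfc4 (12245 bp) in replication, and the condensin subunit Smc4 (15226 bp) and the checkpoint gene Mad1l1 (11755 bp) in mitosis. Cdkn2b, the neighbour of Cdkn2a, had the narrowest start peak of the wider lists, 185 bp. For comparison, 80 genes were taken by the form of their symbols as cytosolic ribosomal protein genes, not from a curated list. A start peak was at 76 of them, and their median was 6120.5 bp (0 to 20311 bp), between the G1 and the later genes.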

How the data were processed

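Per the submitters' processing notes, the tools were MACS2 2.2.6, deepTools, SAMtools 1.9 and Bowtie2 2.3.4.1, with the mm10 build (GRCm38). Each replicate's input entered the MACS call, per the design text of the series. Not given in the sources used here are the threshold, the filters and whether replicates were pooled. The authors' deposited list holds peak starts and ends in bp and other values only as names. Their running numbers reach 71449 for 56285 peaks, so 15164 numbers are absent. The names carry the tag WT_Ddx5, which the labels do not explain. Starts were taken as counted from 0 and are printed counted from 1.

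Genes came from a RefSeq table and starts from RefSeq promoters (GRCm38.p6, listed for 17273 of 21627 genes). An overlap was at least 1 bp. All 143 listed genes matched by symbol or synonym. The members and lists were chosen with earlier results of these data known. By the naming rule, values are in full for the 3 members with the longest acetylated length per role and for members without a start peak, other members may be named, as may neighbours with a peak at their start, and of the wider lists the 2 longest per role are named. Cdkn2b in the wider list was chosen after its value was seen. The main result uses no test, since genes are not replicates. The overlap code was tested on simulated data. Alternatives were other windows, flanks, peak widths, merging, stitching and gene groupings. Python 3.11.15, numpy 2.4.6, pandas 2.3.3 and matplotlib 3.10.9 were used.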

Additional observations from a re-analysis of the deposited data

How the results depend on the processing

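No paired analysis was possible because the list holds no value per library, and for the same reason no replicate could be left out. A value counts as moved when it changed by more than 1.5 times. Start peaks were found at 41 or 42 of 44 members and 95 to 99 of the 99 other pathway genes under all 4 alternatives, the 42nd being Ccnd1 with a 2500 bp window. The ratio of the G1 to the later median acetylated length was 1.58, and 1.57 to 1.84 under 6 alternatives. The ratio of start peak widths was 2.04, 2.15 with peaks merged, 2.41 with the E cyclins and Cdk2 counted among the later genes, 1.35 with the Rb and E2F genes counted as G1, and 1.25 with genes without a start peak counted at 0 bp. These regroupings and the count at 0 bp were chosen after seeing the data. With peaks of at least 500 bp only, members with a peak away from starts were 24 in place of 37, 10 of 14 G1 and 10 of 23 later genes, against 39.3% of all genes. Domains overlapped 6 members with stitching at 5000 bp, 9 with peaks of at least 500 bp and 3 with start peaks left out, in place of 11. In each of these, G1 genes outnumbered the later ones (4 and 1, 5 and 3, 3 and 0).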
